A study of Mus musculus with 20 samples.

Results

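The comparison described here is that of iNOS KO with wildtype macrophages after stimulation with lipopolysaccharide (LPS) and interferon-γ (IFNγ), across the genes of a bulk RNA-seq experiment. Its members were the 18691 of 56748 genes in the count table that had at least 10 counts in total over 12 libraries, and 13208 of them are protein-coding. The series holds 20 libraries, and the 12 used here form 4 groups of 3: wildtype unstimulated, wildtype stimulated, iNOS KO unstimulated and iNOS KO stimulated, each with replicates A, B and C. The contrast itself rests on the 6 stimulated libraries. Per the labels, the cells were bone marrow-derived macrophages (BMDM) of C57BL/6J mice, wildtype or iNOS KO, males or females aged 6 to 12 weeks, kept in 20 ng/mL M-CSF, and stimulation was with LPS at 50 ng/mL and IFNγ at 30 ng/mL for 48 h. Unstimulated cells received neither agent.

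The methods of the study describe the KO mice as B6.129P2-Nos2tm1Lau/J, with marrow pooled by genotype, so the 3 replicates of a group are not stated to come from separate animals and p-values measure the spread between these libraries. For this RNA-seq experiment the same methods name RAW264.7, a macrophage line of mouse origin, where the labels say BMDM. The labels and the methods therefore disagree on which cells were sequenced. Of 10 macrophage markers all 10 had counts, with a summed level between 7076 and 12067 CPM (counts scaled to a common library size, here by the raw library total) in the 12 libraries. Pycard, which encodes the inflammasome adaptor ASC and is known to be missing from RAW264.7 cells, had between 0 and 12 counts in each of the 12 libraries labelled BMDM and between 1 and 15 counts in those labelled RAW264.7. With DESeq2, 3316 genes differed between the stimulated genotypes, 1842 higher and 1474 lower in KO (adjusted p below 0.05, log2 fold change beyond 1). The paper's count for RAW264.7 cells at those limits is nearly the same in each direction. The libraries labelled BMDM are therefore probably the ones that the paper reports as RAW264.7. The groups keep their labels here, and the identity of the cells was not tested further. Summed markers of lymphocytes stayed at or below 1.54 CPM, and those of neutrophils lay between 30.43 and 50.51 CPM in stimulated wildtype and between 34.17 and 39.35 CPM in stimulated KO libraries. Of the neutrophil sum, S100a8 supplied 29.4 to 49.6 CPM in stimulated wildtype and 33.0 to 38.0 CPM in stimulated KO. S100a9 and Ly6g had 0 counts in the stimulated libraries.

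Inducible nitric oxide synthase (iNOS, gene Nos2) makes nitric oxide from arginine and is one of the genes that LPS with IFNγ induces most strongly in mouse macrophages. Nitric oxide reacts with iron centres and thiol groups, so a cell that makes much of it can have many proteins modified, among them respiratory enzymes, metabolic enzymes and regulators of transcription. The genes described below are those of pathways outside the respiratory chain, the NRF2 response and the cell cycle, then transcription regulators, surface receptors and secreted proteins.

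Nos2 had 10370, 11533 and 11312 CPM in the wildtype stimulated libraries A, B and C and 870, 891 and 912 CPM in the KO stimulated libraries. The KO libraries were all far below wildtype but not at 0, and a count over the whole gene does not show which exons were read. From here on, CPM values use the library sizes scaled by the trimmed mean of M values (TMM), a log2 fold change is KO over wildtype with its standard error (SE), and a gene was called where its adjusted p was below 0.05 and its log2 fold change lay beyond 1 in either direction. Every adjusted p comes from the quasi-likelihood test of edgeR, adjusted by the Benjamini-Hochberg method over the 18691 genes.

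After stimulation 3655 genes were called (19.6%), 1998 higher in KO (10.7%) and 1657 lower (8.87%), while the median over all genes tested was -0.04. Without stimulation 310 genes were called (1.66%), 122 higher (0.653%) and 188 lower (1.01%). By the adjusted p alone the shares were 48.4% after stimulation (24.2% in each direction) and 5.98% without it (1.88% higher and 4.09% lower). The interaction of genotype and stimulation, which compares the KO difference between the 2 states, passed for 6617 genes (35.4%), 3732 of them positive (20.0%) and 2885 negative (15.4%). The 3 libraries of each genotype did not overlap after stimulation for 53.2% of the genes tested (25.8% with KO higher and 27.4% with KO lower). They did not overlap for any called gene that is given below with its values in each library. Of the called genes, 270 of the higher and 25 of the lower belong to the respiratory chain, NRF2 and cell cycle lists that are left aside here.

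KO stimulated replicate B stood apart. The counts of replicates A and C of that group differed with a chi-square of 6.61 per degree of freedom, against 28.8 for A with B and 36.8 for B with C, and in every other pair of replicates the value lay between 2.65 and 7.74. Of 7154 well detected protein-coding genes, 182 lay over 1 log2 unit below the mean of A and C in B, and 1 above it. The shift followed gene length: the median of B minus the mean of A and C was 0.14 on the log2 scale for genes of 255 to 2731 bases and -0.16 for genes of 8144 to 123179 bases. The median KO difference after stimulation also went from 0.15 in the shortest to -0.17 in the longest genes, and the part of replicate B in that slope was not tested; list counts without it are given where they moved by over 1.5 times and in some other cases. Without replicate B, 3612 genes were called after stimulation, of which 3236 were among the 3655.

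Among the pathway lists, hypoxia-responsive genes had the largest share called lower in KO. They are transcribed through hypoxia-inducible factors (HIF), which bind a short core sequence near many of their target genes and are known to act in activated macrophages also at normal oxygen. Outside glycolysis, 20 of 28 were called lower and 1 higher (background 8.87% and 10.7%), and the median was -1.49 (the same with P4ha2, below, at its bound). The counts were the same 20 and 1 without KO stimulated replicate B. Among unstimulated cells 1 of the 28 was called lower. The promoters of 3 genes whose transcripts were lower in KO are shown because they hold the HIF core letters ACGTG, in capitals, written 5′ to 3′ on the gene's strand over 250 bases before to 50 bases after the gene start, from RefSeq on GRCm38.p6.
Bnip3, chr7:138909457-138909756, minus strand: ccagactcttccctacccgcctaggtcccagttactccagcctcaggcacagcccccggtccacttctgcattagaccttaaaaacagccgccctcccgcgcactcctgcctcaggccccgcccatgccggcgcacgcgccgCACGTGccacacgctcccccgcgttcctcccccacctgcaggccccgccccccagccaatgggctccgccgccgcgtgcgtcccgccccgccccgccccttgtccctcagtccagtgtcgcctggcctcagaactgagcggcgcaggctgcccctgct
P4ha2, chr11:54100674-54100973, plus strand: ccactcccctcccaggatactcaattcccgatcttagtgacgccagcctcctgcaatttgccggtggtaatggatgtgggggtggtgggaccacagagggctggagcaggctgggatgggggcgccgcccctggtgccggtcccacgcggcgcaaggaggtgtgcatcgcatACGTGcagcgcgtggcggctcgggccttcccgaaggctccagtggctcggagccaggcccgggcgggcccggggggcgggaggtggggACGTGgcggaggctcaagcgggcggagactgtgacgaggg
Slc2a1, chr4:119108495-119108794, plus strand: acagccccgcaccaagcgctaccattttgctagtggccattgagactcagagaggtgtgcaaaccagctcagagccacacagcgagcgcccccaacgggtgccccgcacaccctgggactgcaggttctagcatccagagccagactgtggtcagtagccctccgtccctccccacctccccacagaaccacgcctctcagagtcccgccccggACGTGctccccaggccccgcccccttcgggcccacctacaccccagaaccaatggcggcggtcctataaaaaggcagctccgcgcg
In Bnip3 the capitals hold the core on both strands, 2 matches that overlap. Searched on both strands, the letters were in 13 of the 18 genes of the list that were called lower and had a window (72.2%), in 16 of 23 of the whole list (69.6%), in 28.2% of all tested genes with a window and in 19.6% of all 32851 windows of the table. Over all genes called lower the share was 25.8%. A match is a description of the letters in the window.

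Bnip3, a mitochondrial protein of mitophagy, had 274, 260 and 277 CPM in wildtype stimulated libraries and 37.9, 37.3 and 41.3 CPM in KO stimulated libraries. The KO libraries lay near the unstimulated means of 46.8 CPM in wildtype and 42.1 CPM in KO, and only the wildtype stimulated libraries were high. The log2 fold change was -2.80 ± 0.07 after stimulation (adjusted p = 1.94e-14, edgeR) against -0.15 ± 0.07 without it. Vegfa, the growth factor of blood vessels, followed with 193, 195 and 204 CPM in wildtype and 38, 36.1 and 38.8 CPM in KO. Its log2 fold change was -2.39 ± 0.07 (adjusted p = 7.02e-14, edgeR), and its unstimulated means were 28.0 CPM in wildtype and 34.5 CPM in KO.

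P4ha2, a subunit of the prolyl hydroxylase that modifies collagen, had 14.8, 11.5 and 10.9 CPM in wildtype stimulated libraries and 3 counts or fewer in each KO stimulated library, which makes it at least 63.5-fold lower against a floor of 3 counts per library. Its partner P4ha1 was lower by less, with a log2 fold change of -1.22. Ndrg1, a stress-responsive cytoplasmic protein, had 737, 750 and 809 CPM against 130, 156 and 146 CPM (log2 fold change -2.41 ± 0.07, adjusted p = 9.94e-14, edgeR). The groups of all these genes were separated without overlap.

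Other members called lower were Ankrd37 (-3.28), Stc2 (-2.95), the thioredoxin inhibitor Txnip (-2.62), adrenomedullin Adm (-2.60), the oxidase of the endoplasmic reticulum Ero1a (-2.27), the histone demethylase Kdm3a (-1.83), Bnip3l (-1.70), the mTOR inhibitor Ddit4 (-1.50) and Egln1 (-1.21), a prolyl hydroxylase that marks HIF for removal. The transcript of Hif1a itself was not called, with 136, 104 and 113 CPM in wildtype and 121, 67.8 and 144 CPM in KO stimulated libraries. Its KO values enclosed the wildtype values, and KO replicate B held the lowest (log2 fold change -0.08 ± 0.18, adjusted p = 0.757, edgeR). Epas1, which encodes HIF-2α, was called higher at low levels, from 0.207 CPM in wildtype to 2.37 CPM in KO. Car12, a carbonic anhydrase and the member called higher, went from 1.96 to 4.50 CPM and was not called without wildtype stimulated replicate A.

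In glycolysis and pyruvate metabolism 8 of 34 genes were called lower and 4 higher, and by the adjusted p alone 22 were lower and 8 higher (background 24.2% each way). The median was -0.50, and without KO stimulated replicate B 10 were called lower. Slc2a1, the glucose transporter whose promoter is shown above, had 1547, 1620 and 1684 CPM in wildtype and 588, 669 and 634 CPM in KO stimulated libraries. Both groups were above the unstimulated means of 217 and 209 CPM, and KO was lower in 3 of 3 libraries (log2 fold change -1.36 ± 0.06, adjusted p = 2.72e-11, edgeR). Pfkfb3, which makes the activator of phosphofructokinase, was lower too, with 208, 235 and 223 CPM against 42.3, 35.3 and 40.5 CPM (-2.49 ± 0.08). Hexokinase Hk2 (-1.63), enolase Eno2 (-1.69), Pgk1 (-1.08) and Pdk1 (-1.27), a kinase that inhibits pyruvate dehydrogenase, were also called lower. The members called higher were Pdk3 (1.70), Eno3 (1.58), Slc16a1 (1.21), a lactate and pyruvate carrier, and Pfkfb1 (1.02). Gapdh was not called: its values were 31.3, 275 and 32.9 CPM in wildtype and 13.1, 175 and 37.1 CPM in KO, and libraries of 1 genotype differed more than the genotypes did. Gapdh has many near-identical pseudogenes, so its count is uncertain.

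**Figure D1:**
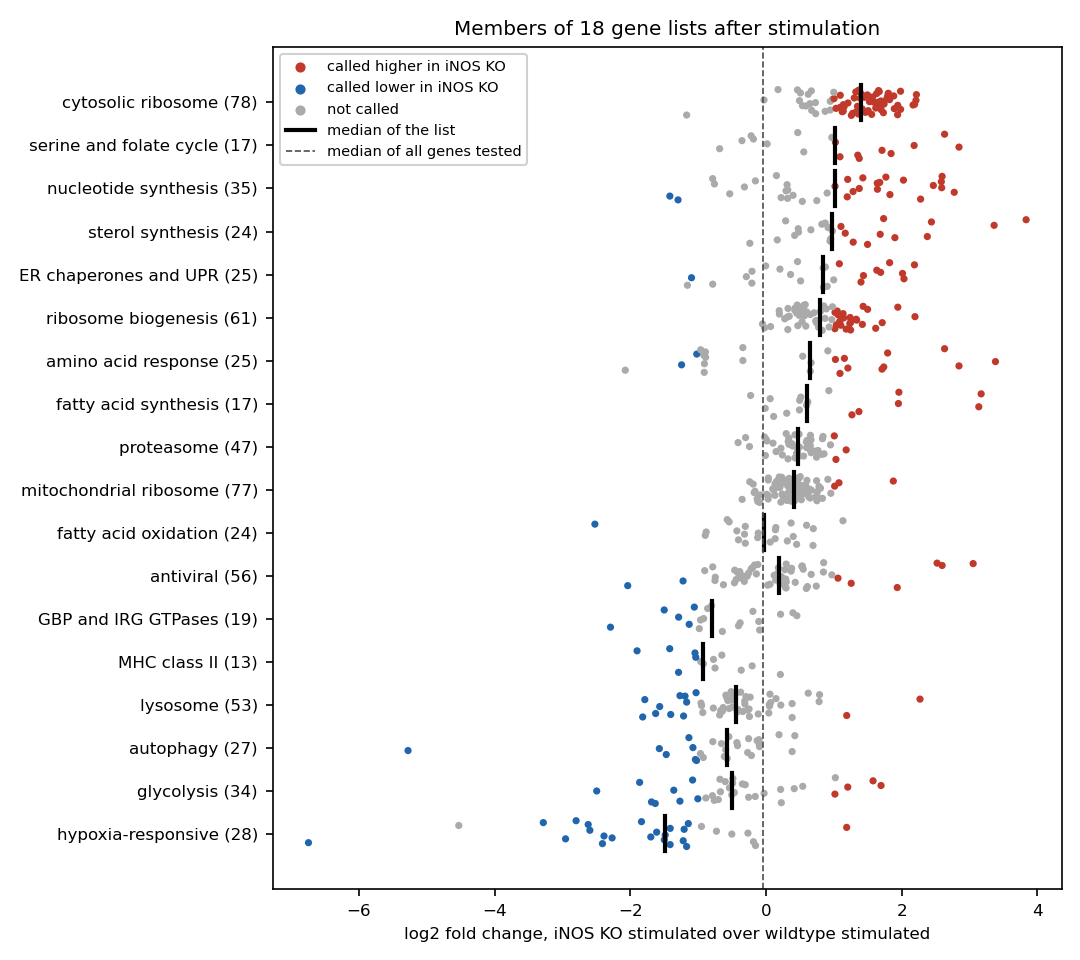
Log2 fold change of iNOS KO over wildtype after stimulation for each tested member of 18 pathway lists, 1 point a gene, with the number of members in parentheses. Red points were called higher and blue points lower (adjusted p below 0.05 and a log2 fold change beyond 1 in either direction, edgeR), black bars are list medians and the dashed line is the median of all genes tested (-0.04); medians ran from -1.49 for hypoxia-responsive genes to 1.41 for the cytosolic ribosome.

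Lipid synthesis was higher in KO after stimulation. The sterol pathway builds cholesterol from acetyl-CoA under SREBP2, and fatty acid synthesis and desaturation run under SREBP1. Of 24 genes of sterol synthesis and uptake, 11 were called higher and 0 lower, with a median of 0.97. Without KO stimulated replicate B 10 were called, and 15 when libraries were scaled by their totals. Of 17 genes of fatty acid synthesis and desaturation, 6 were called higher and 0 lower, with a median of 0.60. Among unstimulated cells 0 genes of either list were called, with medians of -0.11 in both.

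Fads2, a desaturase of polyunsaturated fatty acids, had 9.63, 12.6 and 11 CPM in wildtype stimulated libraries and 92.3, 109 and 91.7 CPM in KO stimulated libraries. The unstimulated means were 281 CPM in wildtype and 261 CPM in KO, so the KO stimulated libraries lay between the wildtype stimulated and the unstimulated ones. Its log2 fold change was 3.14 ± 0.10 after stimulation (adjusted p = 3.49e-13, edgeR) and -0.11 ± 0.09 without. Scd1, the stearoyl-CoA desaturase, had 3.95, 4.66 and 3.61 CPM against 35.2, 37.6 and 37.6 CPM (log2 fold change 3.17 ± 0.09, adjusted p = 7.60e-14, edgeR), with unstimulated means of 180 and 161 CPM.

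The same order of levels held for Fasn, the fatty acid synthase (log2 fold change 1.95 ± 0.09), and for Hmgcs1, which makes HMG-CoA (1.73 ± 0.12). Fdps reached 3.84 at a low level, 0.136 CPM in wildtype and 2.06 CPM in KO, while Idi1 had 2.44 and Lss 1.11. The regulator Srebf2 had 0.96 ± 0.08 and Srebf1 0.49 ± 0.08, both under the fold limit. Of 16 genes of sterol efflux and lipid storage 3 were called higher and 2 lower, with a median of -0.32. The shares were 18.8% and 12.5%, against 10.7% and 8.87% of all genes tested. The exporter Abca1 was lower (-1.17 ± 0.09), while lipoprotein lipase Lpl rose from 741 to 1712 CPM (1.21 ± 0.06). In fatty acid oxidation 0 of 24 genes were called higher and 1 lower.

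Genes of translation were higher in KO. The cytosolic ribosome is built from ribosomal proteins and processed ribosomal RNA, and the messages of its proteins are among the most abundant of a cell. Of 78 cytosolic ribosomal protein genes 59 were called higher and 0 lower, with a median of 1.41, and the count was 59 without KO stimulated replicate B. Rps23 had 101, 125 and 130 CPM in wildtype and 535, 594 and 519 CPM in KO stimulated libraries, beside unstimulated means of 502 and 466 CPM. Only the wildtype stimulated libraries were low (log2 fold change 2.21 ± 0.09, adjusted p = 1.98e-12, edgeR). The elongation factor Eef1a1 went from 1401, 1490 and 1576 CPM to 8590, 9238 and 8783 CPM (2.57 ± 0.06, adjusted p = 2.47e-15, edgeR). Ribosomal protein genes have many processed pseudogenes, of which 267 of 1547 tested in the table were called higher and 58 lower, and reads may be split between a gene and its copies.

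In ribosome biogenesis 23 of 61 genes were called higher and 0 lower (median 0.80), and 18 were without KO stimulated replicate B. Dkc1, the pseudouridine synthase of ribosomal RNA, had 13.6, 9.79 and 11.8 CPM in wildtype and 59.6, 38.4 and 63.1 CPM in KO, where replicate B held the lowest KO value, and its log2 fold change was 2.20 ± 0.16 (adjusted p = 3.69e-09, edgeR). Npm3 (1.94), Fbl (1.50 ± 0.07), Ncl (1.09) and the polymerase I subunit Polr1b (1.34) were higher too. The ribosome of mitochondria moved less, with 3 of 77 called higher (5 without wildtype stimulated replicate C) and a median of 0.41. Of 20 cytosolic tRNA synthetases 4 were called higher and 0 lower (20.0% and 0.0%, against 10.7% and 8.87% of all genes tested). Vars led with 49, 53.9 and 52.8 CPM against 245, 302 and 240 CPM (2.34 ± 0.09).

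Nucleotide synthesis and the serine and folate pathways that feed it with carbon were higher in the same samples. Of 35 genes of purine and pyrimidine metabolism 18 were called higher and 2 lower (median 1.02), and of 17 genes of the serine, folate and methionine cycle 9 were called higher and 0 lower (median 1.02), with the same counts without KO stimulated replicate B. Phgdh, the first enzyme of serine synthesis, had 22.1, 25 and 28.5 CPM in wildtype and 139, 179 and 151 CPM in KO stimulated libraries. Wildtype stimulated libraries were lowest, and those of KO also lay below the unstimulated means of 246 and 222 CPM (log2 fold change 2.63 ± 0.10, adjusted p = 2.21e-12, edgeR). Shmt2, the mitochondrial serine hydroxymethyltransferase, had 2.85 ± 0.09, and Ahcy, which clears S-adenosylhomocysteine, had 2.18.

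Umps, which makes UMP, went from 6.37, 7.09 and 5.75 to 41.1, 48.9 and 41.9 CPM (log2 fold change 2.78 ± 0.11, adjusted p = 1.94e-12, edgeR). Impdh2, the gate to guanine nucleotides, had 2.60 ± 0.08, Ctps, the CTP synthase, 2.47 ± 0.07, and Cad, the start of pyrimidine synthesis, 2.28 ± 0.10. The 2 members called lower were Cmpk2 (-1.42), a mitochondrial nucleotide kinase that interferon induces, and Adssl1 (-1.30). Many genes of these pathways are also used in cycling cells, and 261 of 380 genes of the cell cycle and DNA replication list were called higher in the same contrast; how far proliferation took part was not tested.

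Targets of the amino acid response were divided. ATF4 drives enzymes of amino acid supply and also regulators of stress and death when amino acids are short or misfolded proteins accumulate. Of 25 targets 10 were called higher and 2 lower, and the lower count was 5 without KO stimulated replicate B and 1 without KO stimulated replicate A or wildtype stimulated replicate B or C. Higher were the enzymes Cth (3.38 ± 0.13), which makes cysteine, Psat1 (1.71), Asns (1.16) and the transporter Slc7a5 (1.79 ± 0.09). Cth had 2.56, 2.97 and 3.81 CPM in wildtype and 31.9, 32.6 and 33.2 CPM in KO stimulated libraries, above the unstimulated means of 6.79 and 4.30 CPM. Lower was Ddit3, which encodes the factor CHOP, with 155, 154 and 164 CPM against 65.5, 69.2 and 65 CPM (-1.24 ± 0.09, adjusted p = 8.01e-09, edgeR). Atf4 (-0.96), Trib3 (-0.92) and Ppp1r15a (-0.89) passed the adjusted p but not the fold limit.

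Chaperones of the endoplasmic reticulum were higher, with 9 of 25 called higher and 1 lower (median 0.85). Herpud1 had 14.9, 18.5 and 20 CPM in wildtype and 74, 88.1 and 81.5 CPM in KO (log2 fold change 2.19 ± 0.10, adjusted p = 2.07e-11, edgeR), and the isomerase Pdia6 (2.03 ± 0.06), Sdf2l1 (2.01 ± 0.07) and Manf (1.82) did likewise. The list's lower member, Ern1 (-1.10), was not called without that replicate, when 0 genes of the list were lower.

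Of 33 inflammasome and cell death genes 3 were called higher and 4 lower (9.1% and 12.1%, near the 10.7% and 8.87% of all genes tested), or 5 and 2 without KO stimulated replicate B and 5 and 3 without wildtype stimulated replicate C. Ripk3, the kinase of necroptosis, had 27, 29 and 31.3 CPM in wildtype and 91.9, 109 and 93.9 CPM in KO stimulated libraries (log2 fold change 1.76 ± 0.09, adjusted p = 8.00e-11, edgeR), and its unstimulated difference was -0.03. Nlrc4, a sensor of bacterial proteins, was higher (1.09) and Bid, which links death receptors to mitochondria, lower (-1.15).

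Arginine is the substrate of iNOS. Of 21 genes of arginine, polyamine and tetrahydrobiopterin metabolism 4 were called higher (19%, against 10.7% of all genes tested) and 0 lower (against 8.87%). By the adjusted p alone 12 were higher and 5 lower (background 24.2% each way). Gatm, which turns arginine into the precursor of creatine, had 7.62, 8.84 and 8.18 CPM in wildtype and 59.5, 58.3 and 58.1 CPM in KO (2.83 ± 0.08, adjusted p = 7.89e-14, edgeR). Srm, the spermidine synthase, went from 13.2 to 73.3 CPM (2.47 ± 0.10). The transporter Slc7a2 (-0.83) and Arg2 (-0.40) stayed under the fold limit.

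Lysosome and autophagy genes were lower in KO in part. Of 53 genes of lysosomal hydrolases and membrane proteins 10 were called lower and 2 higher, and 38 were lower by the adjusted p alone (background 24.2%), with a median of -0.45. Gpnmb, a membrane protein of stressed lysosomes, had 16968, 19139 and 19189 CPM in wildtype and 5228, 5719 and 5088 CPM in KO (log2 fold change -1.79 ± 0.06, adjusted p = 4.97e-13, edgeR). It was lower in unstimulated KO as well (-0.82 ± 0.06), and the list had a median of -0.25 there. Naglu (-1.82 ± 0.11), which degrades heparan sulfate, the cystine exporter Ctns (-1.63 ± 0.09) and prosaposin Psap (-1.21) were lower. Against the rest, Ctsc, the protease that activates granule enzymes, had 86, 89.3 and 90.9 CPM in wildtype and 449, 387 and 449 CPM in KO (2.27 ± 0.07, adjusted p = 1.20e-13, edgeR).

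In autophagy 7 of 27 genes were called lower and 0 higher, and 20 were lower by the adjusted p alone (median -0.57). Without KO stimulated replicate B 6 were called, and 4 when libraries were scaled by their totals. Optn, a receptor of selective autophagy, had 4.16, 4.73 and 4.51 CPM in wildtype and 3 counts or fewer in each KO stimulated library, at least 22.9-fold lower, and it was also near 0 in unstimulated KO (1.03 CPM in wildtype and 0.016 CPM in KO). Map1lc3a had -1.57 ± 0.13 and the kinase Ulk1 -1.08, while the receptor Sqstm1 (-0.57) stayed under the fold limit. The lysosomal regulators of the MiT-TFE family bind the letters CACGTG, which contain ACGTG. These letters were in 13 of 41 lysosomal genes with a window (31.7%) and in 4 of 22 autophagy genes with one (18.2%). In ribosome biogenesis, whose called genes were higher in KO, they were in 11 of 54 (20.4%). The share was 11% of all tested genes with a window (1265 of 11451) and 7.2% of all windows of the table.

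**Figure D2:**
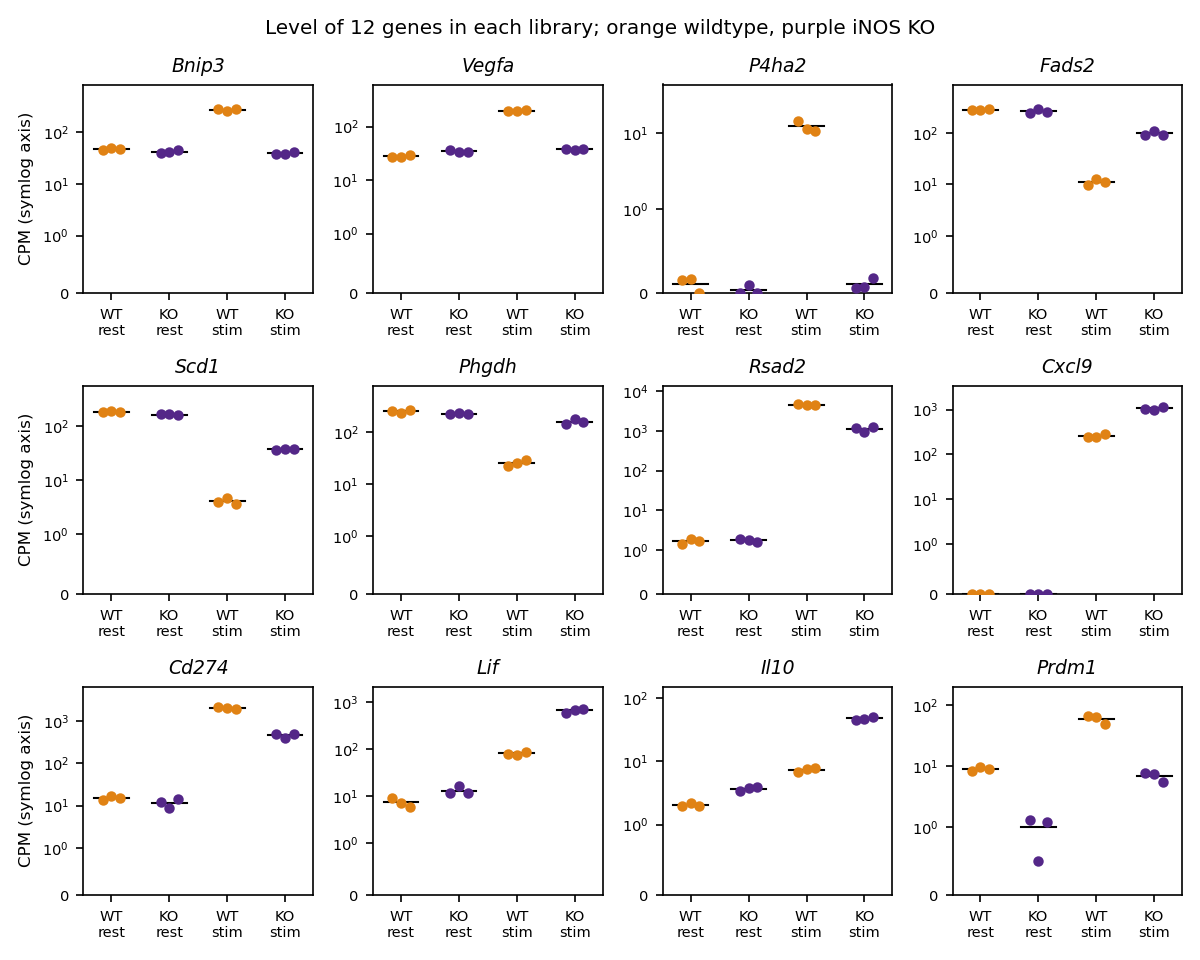
Level of 12 genes in each of the 12 libraries, in CPM on an axis that is linear below 1 and logarithmic above it, with wildtype in orange, iNOS KO in purple and a black bar at each group mean; rest stands for unstimulated and stim for stimulated. Bnip3, Vegfa and P4ha2 were high in the wildtype stimulated group alone, Fads2, Scd1 and Phgdh were lowest there, and Lif, Il10 and Cxcl9 were highest in the KO stimulated group.

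Interferon-stimulated genes did not move as one group. Type I interferons and IFNγ act through STAT and IRF factors on antiviral genes, on the GTPases of the GBP and IRG families that attack vacuoles of pathogens, and on antigen presentation. Of 56 antiviral genes 6 were called higher and 2 lower (10.7% and 3.6%, against 10.7% and 8.87% of all genes tested), and 9 and 2 without KO stimulated replicate B, with a median of 0.19. The promoters of 2 genes are shown because Rsad2 was lower and Slfn9 higher in KO while both windows hold the letters of an interferon-stimulated response element on the reverse strand (capitals): GAAA, any 2 bases, then GAAA.
Rsad2, chr12:26456403-26456702, minus strand: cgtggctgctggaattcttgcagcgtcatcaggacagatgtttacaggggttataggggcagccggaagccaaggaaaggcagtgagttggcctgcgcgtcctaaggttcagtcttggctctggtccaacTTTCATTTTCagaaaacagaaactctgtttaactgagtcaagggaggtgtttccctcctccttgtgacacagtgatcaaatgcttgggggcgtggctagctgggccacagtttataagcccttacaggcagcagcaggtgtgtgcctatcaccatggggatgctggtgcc
Slfn9, chr11:82991781-82992080, minus strand: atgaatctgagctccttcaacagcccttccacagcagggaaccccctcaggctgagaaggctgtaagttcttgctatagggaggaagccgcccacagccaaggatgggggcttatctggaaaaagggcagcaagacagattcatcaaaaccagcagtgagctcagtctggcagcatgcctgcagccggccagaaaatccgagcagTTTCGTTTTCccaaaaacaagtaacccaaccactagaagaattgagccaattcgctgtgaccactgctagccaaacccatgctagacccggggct
On either strand these letters were in 23 of 42 antiviral genes with a window (54.8%). They were in 10 of 11 GBP and IRG genes with a window (90.9%). The share was 4.0% of all tested genes with a window and 3.4% of all windows of the table.

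Rsad2, the antiviral enzyme viperin, had 4654, 4467 and 4593 CPM in wildtype stimulated libraries and 1168, 925 and 1246 CPM in KO stimulated libraries. Both groups were far above the unstimulated means of 1.66 and 1.74 CPM, and KO was lower in 3 of 3 libraries (log2 fold change -2.04 ± 0.09, adjusted p = 7.79e-12, edgeR). Slfn9, of the Schlafen family, had 10.2, 9.93 and 10.7 CPM in wildtype and 73.6, 34 and 78.7 CPM in KO (2.60 ± 0.23, adjusted p = 6.31e-08, edgeR), with replicate B again the lowest of KO. Its relative Slfn1 went from 6.16, 5.33 and 8.60 to 55.7, 57 and 54.4 CPM (3.05 ± 0.15, adjusted p = 1.94e-09, edgeR) and had 0 counts in unstimulated cells. Ifi27l2a (2.52 ± 0.14) and Ifitm3 (1.26), which blocks viral entry, were higher. Isg15 (-0.34 ± 0.08) and Ifit1 (0.23 ± 0.08), which are common readouts of interferon, lay under the fold limit.

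The GTPases leaned the other way. Of 19 GBP and IRG genes 5 were called lower and 0 higher (median -0.80), and 3 without KO stimulated replicate B or 8 without replicate A. Igtp had 2058, 2076 and 2132 CPM in wildtype and 859, 843 and 864 CPM in KO (log2 fold change -1.29 ± 0.07, adjusted p = 1.91e-10, edgeR), and Gbp8 had -2.29 ± 0.18. Gbp2 was not called, with 1396, 1428 and 1472 CPM against 1336, 1313 and 1380 CPM (-0.09 ± 0.08, adjusted p = 0.378, edgeR).

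MHC class II genes, which IFNγ induces through the coactivator CIITA, were lower or under the limit. Of 13 genes 5 were called lower and 0 higher, and 11 were lower by the adjusted p alone (median -0.92). When libraries were scaled by their totals 3 were called, and 3 without wildtype or KO stimulated replicate C. Ciita had 18.4, 23.3 and 22.3 CPM in wildtype and 7.78, 11.2 and 7.34 CPM in KO (-1.29 ± 0.17, adjusted p = 5.60e-06, edgeR), H2-Ab1 went from 12.4 to 3.34 CPM (-1.90 ± 0.19) and the invariant chain Cd74 from 957 to 569 CPM (-0.75 ± 0.07). In MHC class I presentation 1 of 21 genes, H2-M3 (-1.16), was called lower, and 2 without wildtype stimulated replicate A or KO stimulated replicate B.

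The sensors and the first factors of the LPS and IFNγ pathways were under the fold limit. Of 16 Toll-like and NOD-like receptor genes, 5 NF-κB subunits and 15 IRF and STAT genes, 0 were called higher and 0 lower. Without a fold limit, 6 receptor genes were higher and 5 lower, 1 subunit (Nfkb1, 0.56 ± 0.06) was higher, and of the IRF and STAT genes 3 were higher and 6 lower, by the adjusted p. Irf8, a factor of the macrophage lineage, lay just inside the limit at 1.00 ± 0.07, with 406, 416 and 448 CPM against 778, 908 and 851 CPM, and was called under library totals as the scaling, when 1 gene of the list was called higher. Irf1 had 1644, 1637 and 1504 CPM against 884, 1050 and 824 CPM (-0.79 ± 0.08). Without wildtype stimulated replicate C or KO stimulated replicate A 1 gene of the IRF and STAT list was called higher, and 1 Toll-like or NOD-like receptor gene was called higher without KO stimulated replicate B and 1 lower without replicate A.

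Among the 947 genes that the table assigns to a family of transcription factors, 71 were called higher and 79 lower (7.5% and 8.3%), and the 10 E2F genes had 6 called higher and 0 lower. Maf, a factor of the macrophage programme, was higher after stimulation, with 16.1, 16.2 and 15.1 CPM against 45.2, 32.8 and 47.4 CPM (1.40 ± 0.14, adjusted p = 3.86e-07, edgeR), and was near 0 in unstimulated cells (0.722 CPM in wildtype and 0.0166 CPM in KO).

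Prdm1, the repressor Blimp-1, had 67.2, 62.9 and 48.1 CPM in wildtype and 7.58, 7.57 and 5.43 CPM in KO. Its log2 fold change was -3.12 ± 0.17 after stimulation (adjusted p = 1.85e-10, edgeR) and -3.14 ± 0.24 without, with an interaction of 0.02 ± 0.24. Ahr, the aryl hydrocarbon receptor, went from 20.8, 22.7 and 21.8 to 3.41, 3.03 and 5.61 CPM (-2.42 ± 0.18, adjusted p = 9.17e-09, edgeR). Bhlhe41, a repressor of the circadian and macrophage programmes, had -2.35 ± 0.08, the glucocorticoid-induced Tsc22d3 -2.28 ± 0.14, the TGFβ mediator Smad3 -2.15 ± 0.15 and Foxo1 -1.44 ± 0.14.

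Factors called higher included Foxm1 (2.48 ± 0.10), which drives mitotic genes, Trp53 (1.44 ± 0.08), Nr4a1 (1.59 ± 0.12), Cebpd (48.8 to 138 CPM), Mycn (1.43) and Ikzf1 (1.13 ± 0.08). Myc had 146, 159 and 176 CPM in wildtype and 353, 367 and 356 CPM in KO stimulated libraries (1.16 ± 0.08, adjusted p = 4.80e-09, edgeR), while Mxi1, an antagonist of Myc, was lower with 62.9, 65 and 63.9 against 21.8, 24.5 and 22.3 CPM (-1.49 ± 0.08). Of 22 targets of p53, 5 were called lower and 2 higher (22.7% and 9.1%, against 8.87% and 10.7% of all genes tested). Among the higher was Bbc3, the death protein PUMA, with 9.97, 11 and 9.43 CPM against 32.3, 37.1 and 36 CPM (1.79 ± 0.10, adjusted p = 2.88e-10, edgeR). The list as a whole leaned lower, with a median of -0.46, and 14 targets were lower and 4 higher by the adjusted p alone. The epigenetic factor Uhrf1, which keeps DNA methylation through replication, rose from 6.55 to 211 CPM (5.01 ± 0.14).

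**Figure D3:**
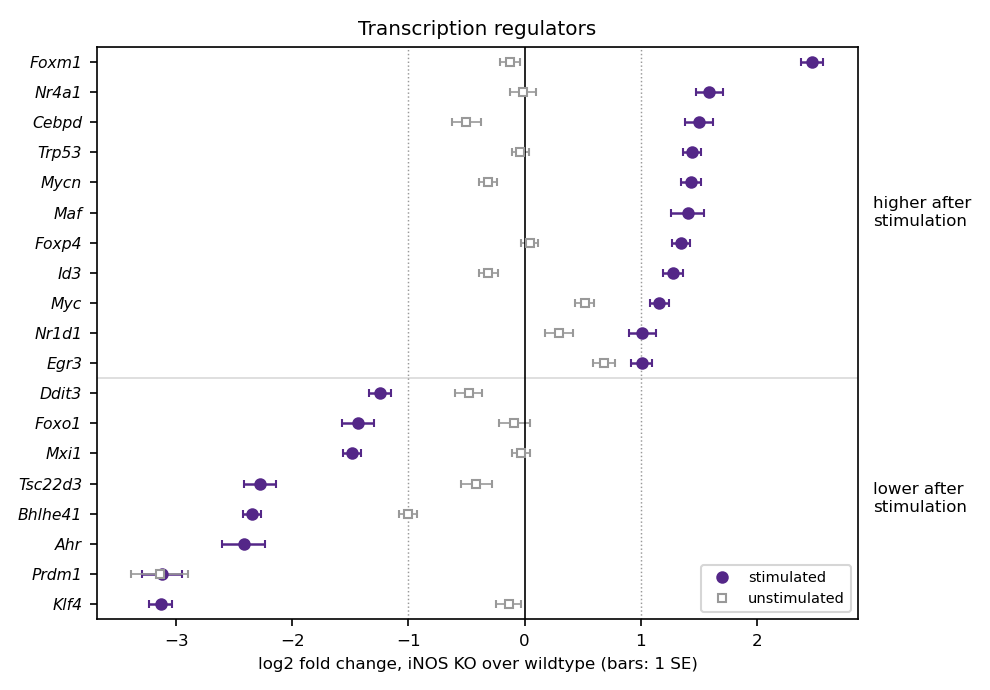
Log2 fold change of iNOS KO over wildtype for 19 transcription regulators, after stimulation (filled circles) and without it (open squares), with bars of 1 SE and dotted lines at the fold limit of 1. Prdm1 lay below -1 in both states, and Maf and Ahr have no square because unstimulated KO libraries had 3 counts or fewer.

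Surface receptors were called in both directions, which also held for all genes tested (10.7% higher and 8.87% lower). Of 24 co-stimulatory and checkpoint genes 6 were called lower and 3 higher (25.0% and 12.5%). Cd274 encodes PD-L1, a ligand that restrains T cells, and had 2168, 2023 and 1942 CPM in wildtype stimulated libraries against 499, 386 and 504 CPM in KO. The KO libraries were lower in 3 of 3 and above the unstimulated means of 15.4 and 11.8 CPM (log2 fold change -2.14 ± 0.12, adjusted p = 2.74e-10, edgeR). Havcr2, the receptor TIM-3, had -1.52 ± 0.10, and Vsir, the inhibitory VISTA, -1.11. Cd40 was not called, with 549, 578 and 620 CPM against 593, 657 and 663 CPM (0.13 ± 0.08), and Icosl rose from 4.90 to 14.9 CPM (1.60 ± 0.13).

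Lectin and scavenger receptors that take up microbes, lipids and dying cells were rearranged. Of 30 C-type lectin and Siglec receptors 9 were called lower and 4 higher (30.0% and 13.3%, against 8.87% and 10.7% of all genes tested). A separate count without stimulation gave 8 of the 30 lower and 0 higher, against 1.01% and 0.653% of all genes tested. Siglec1 was among the lower. Clec7a, the β-glucan receptor Dectin-1, had 241, 249 and 253 CPM in wildtype and 40.1, 26.2 and 45.2 CPM in KO stimulated libraries (log2 fold change -2.73 ± 0.15, adjusted p = 1.27e-10, edgeR), and its unstimulated difference was -1.36 ± 0.18. Siglec1, which binds sialic acid on pathogens and cells, had 45.2, 45 and 45.1 CPM in wildtype and 178, 195 and 167 CPM in KO after stimulation (1.99 ± 0.09, adjusted p = 2.25e-11, edgeR), against 6.95 and 2.49 CPM without it (-1.47 ± 0.14). Of 23 scavenger and clearance receptors 6 were called higher and 4 lower (26.1% and 17.4%). Olr1, the receptor of oxidised LDL, was lower with 82.5, 67.7 and 79.8 CPM against 12.1, 9.95 and 16.8 CPM (-2.56 ± 0.16). The related kinases Mertk and Axl, which recognise dying cells, went opposite ways at low levels, Mertk from 5.91 to 0.907 CPM (-2.69 ± 0.29) and Axl from 0.343 to 3.03 CPM (3.11 ± 0.45). Of their bridging ligands, Gas6 was lower (48.4 to 13.2 CPM, -1.87 ± 0.09) and Pros1 higher (1.88 to 15.9 CPM, 3.08 ± 0.17).

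Receptors of antibodies and complement gave 6 called higher and 8 lower of 33 (18.2% and 24.2%, against 10.7% and 8.87% of all genes tested). Fcgr1, the high-affinity IgG receptor, had 52.6, 61.2 and 59.3 CPM in wildtype and 201, 218 and 186 CPM in KO (log2 fold change 1.81 ± 0.09, adjusted p = 2.43e-11, edgeR). The inhibitory Fcgr2b (1.96 ± 0.10) and the complement receptor C5ar1 (1.90 ± 0.11) were higher as well, and all 3 had unstimulated differences below 0, of -0.79, -0.50 and -0.47. Fcgr3 (-1.04) and the anaphylatoxin receptor C3ar1 (-1.11) were lower. Of 40 integrins and adhesion molecules 6 were called higher and 8 lower (15% and 20%, against 10.7% and 8.87% of all genes tested). The lower count was 4 without wildtype stimulated replicate C and 5 without KO stimulated replicate A, nearer to the share of all genes. Itgax, or CD11c, was lower (91.5, 104 and 104 against 26, 27.7 and 27.2 CPM; -1.89 ± 0.10, adjusted p = 6.48e-11, edgeR) and Itgal, or LFA-1, higher (119 to 327 CPM; 1.46 ± 0.08).

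Cytokine and chemokine receptors also split. The shared β chains of the receptors for IL-3, IL-5 and GM-CSF were lower, Csf2rb with 598, 669 and 642 CPM against 212, 244 and 213 CPM (log2 fold change -1.51 ± 0.07, adjusted p = 1.07e-11, edgeR) and Csf2rb2 with -1.84 ± 0.06. Tgfbr1 was lower (62.5, 56.9 and 61.6 against 18.9, 10.4 and 25.4 CPM; -1.72 ± 0.19), with replicate B the lowest of KO. The IL-18 receptor chain Il18rap had 5.47, 5.40 and 4.92 CPM in wildtype and 59.8, 46.6 and 64.8 CPM in KO (3.44 ± 0.15, adjusted p = 7.63e-12, edgeR), and the IL-33 receptor Il1rl1 went from 2.40 to 15.7 CPM (2.71 ± 0.19). Of 19 chemokine receptors 5 were called lower and 3 higher (26.3% and 15.8%, against 8.87% and 10.7% of all genes tested). Among the lower was Ccr1 (374, 384 and 397 against 143, 130 and 149 CPM, -1.45 ± 0.07). Among the higher was the fractalkine receptor Cx3cr1 (1.28 to 14.8 CPM, 3.52 ± 0.14).

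Ly6a, known as Sca-1, had 17.2, 17.7 and 16.4 CPM in wildtype and 211, 241 and 189 CPM in KO stimulated libraries and was near 0 without stimulation (3.64 ± 0.11, adjusted p = 1.29e-12, edgeR). Of 65 G protein-coupled receptors 8 were called higher and 11 lower (12.3% and 16.9%, against 10.7% and 8.87% of all genes tested). The fatty acid receptor Gpr84 (1.49 ± 0.11) and the adenosine receptor Adora2b (2.10) were among the higher. S1pr2 (-1.44 ± 0.10) and the nucleotide receptor P2ry2 (-1.47 ± 0.10) were among the lower. Of 252 solute carriers 21 were called higher and 32 lower (8.3% and 12.7%), close to the shares of all genes. The glutamine carrier Slc1a5 had 82.5, 89.9 and 93.5 CPM in wildtype and 293, 346 and 301 CPM in KO (1.82 ± 0.07, adjusted p = 3.17e-12, edgeR), and the carnitine and ergothioneine carrier Slc22a4 had 80.2, 76.9 and 75 CPM against 20.4, 20 and 19.9 CPM (-1.94 ± 0.12, adjusted p = 6.59e-10, edgeR).

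Secreted genes were called in both directions too. Of 23 chemokines 5 were called higher and 7 lower (21.7% and 30.4%). The 3 ligands of CXCR3, which IFNγ induces and which draw T cells, were higher. Cxcl9 had 252, 248 and 282 CPM in wildtype and 1060, 977 and 1151 CPM in KO stimulated libraries and 0 counts in unstimulated cells (log2 fold change 2.03 ± 0.08, adjusted p = 3.12e-10, edgeR). Cxcl11 had 2.37 ± 0.10 and Cxcl10 1.34 ± 0.07. The monocyte attractant Ccl12 went from 6.35 to 37.7 CPM (2.57 ± 0.14). The neutrophil attractant Cxcl2 was lower, with 3358, 3409 and 3538 CPM against 1418, 1421 and 1337 CPM (-1.30 ± 0.07, adjusted p = 1.36e-10, edgeR). Ccl5 was called lower at the limit (973 and 485 CPM) and was higher in unstimulated KO (0.545 and 1.40 CPM; 1.35 ± 0.20, adjusted p = 4.07e-04, edgeR), one of the genes called in opposite directions. Under the limit were Ccl3 (0.19), Ccl4 (0.32) and Ccl2 (-0.43).

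Of 29 interleukins, interferons and colony-stimulating factors 7 were called higher and 4 lower (24.1% and 13.8%, against 10.7% and 8.87% of all genes tested). The counts were 7 and 2 when libraries were scaled by their totals. Lif, a cytokine of the IL-6 family, had 80.7, 73.7 and 88.3 CPM in wildtype and 591, 693 and 724 CPM in KO, with unstimulated means of 7.40 and 13.1 CPM (log2 fold change 3.05 ± 0.13, adjusted p = 8.60e-12, edgeR). Il10, which restrains inflammation, had 6.72, 7.43 and 7.83 CPM against 44.9, 46.7 and 50.1 CPM (2.69 ± 0.10, adjusted p = 1.16e-12, edgeR). Il27 rose from 16.2 to 78.4 CPM (2.27 ± 0.16), Il18 from 6.51 to 20.4 CPM (1.65 ± 0.16) and Osm from 30.3 to 74.3 CPM (1.29 ± 0.12). Csf2, or GM-CSF, fell from 4.59 to 0.741 CPM (-2.62 ± 0.30), and Il7 from 12.0 to 3.67 CPM (-1.70 ± 0.21).

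The classic inflammatory cytokines gave 3 patterns. Tnf was lower in KO, with 4612, 4670 and 4089 CPM against 1937, 2299 and 1664 CPM (log2 fold change -1.18 ± 0.09, adjusted p = 7.94e-09, edgeR). Il1b lay under the fold limit (337 and 231 CPM; -0.54 ± 0.12). Il6 had 31.9, 26.4 and 26.6 CPM in wildtype and 55.4, 32.7 and 69.4 CPM in KO, where replicate B was the lowest of its group, and stayed under the limit too (0.90 ± 0.20, adjusted p = 1.78e-03, edgeR). The TNF family member Ltb was higher (18.5 to 57.2 CPM, 1.62 ± 0.12).

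Growth factors gave 9 called higher and 8 lower of 39 (23.1% and 20.5%, against 10.7% and 8.87% of all genes tested). Beside Vegfa and Gas6, Hbegf, a ligand of the EGF receptor, was lower with 127, 142 and 150 CPM against 19.7, 25.5 and 26.1 CPM (log2 fold change -2.56 ± 0.11, adjusted p = 1.11e-11, edgeR). Among 39 proteases of the matrix the gelatinase Mmp9 was higher (118, 126 and 127 against 237, 292 and 262 CPM; 1.09 ± 0.08) and the membrane-bound Mmp14 lower (43.8 to 12.2 CPM; -1.85 ± 0.13). Of 37 protease inhibitors 10 were called higher and 5 lower (27.0% and 13.5%), and Timp2 fell from 15.7 to 2.55 CPM (-2.63 ± 0.14). Fibroblast markers summed to between 3.0 and 4.0 CPM in wildtype and between 10.06 and 14.73 CPM in KO stimulated libraries, on raw library totals. Dcn supplied 1.83 to 2.13 CPM of this in wildtype and 9.16 to 13.8 CPM in KO, Pdgfra went the other way with 1.11 to 1.86 CPM in wildtype and 0.064 to 0.212 CPM in KO, and Col1a1 and Col3a1 had 0 to 2 counts in each library. Dcn also belongs to the matrix list, where 8 of 51 genes were called higher and 10 lower (15.7% and 19.6%). Without KO stimulated replicate B the counts were 8 and 8, and the part of other cells in that list was not tested.

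Lcn2, the iron-sequestering lipocalin, had 40.2, 47.5 and 48.7 CPM in wildtype and 347, 347 and 351 CPM in KO stimulated libraries (log2 fold change 2.94 ± 0.10, adjusted p = 5.06e-13, edgeR). The galectins split, with Lgals1 higher (239 to 645 CPM, 1.43 ± 0.08) and Lgals3 lower (3483 to 1339 CPM, -1.38 ± 0.07). The 3 chains of complement C1q were higher together at low levels, a feature chosen after its values were seen: C1qb went from 0.708 to 8.67 CPM (3.60 ± 0.22) and C1qc from 0.456 to 4.97 CPM (3.42 ± 0.36), and C1qa was at least 9.19-fold higher against the floor of 3 counts.

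**Figure D4:**
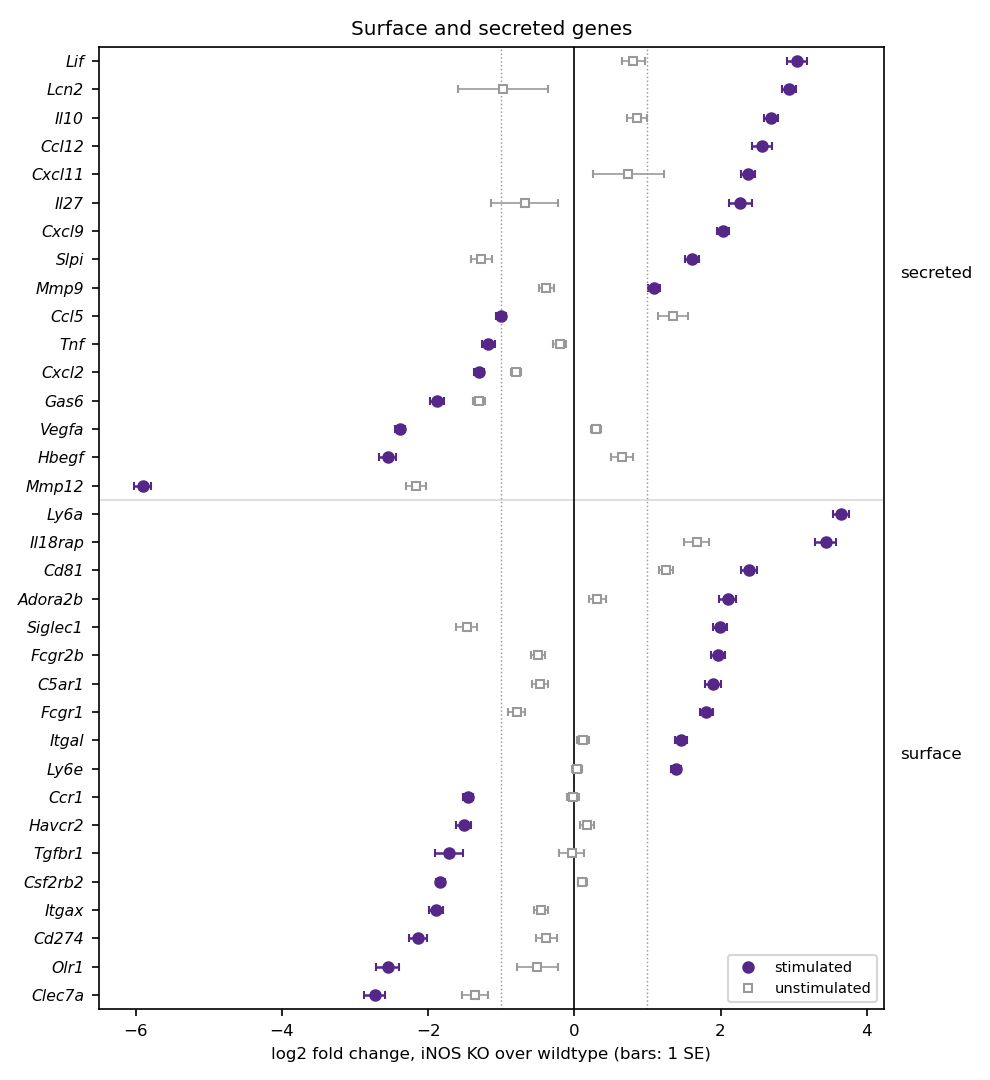
Log2 fold change of iNOS KO over wildtype for 16 secreted and 18 surface genes, after stimulation (filled circles) and without it (open squares), with bars of 1 SE and dotted lines at the fold limit of 1. Siglec1 and Slpi lay above 1 after stimulation and below -1 without it. Most other genes with a square had an unstimulated difference inside the limit, and Clec7a, Cd81 and Ccl5 were among those outside it. Genes such as Cxcl9 have no square, because a genotype had 3 counts or fewer in every unstimulated library.

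Of the genes called after stimulation, 3450 were not called without it. Called in both states were 84 genes higher in both, 102 lower in both and 19 in opposite directions. Ms4a7, a membrane protein of macrophages, had 176, 188 and 186 CPM in wildtype and 8.29, 7.28 and 7.10 CPM in KO after stimulation (log2 fold change -4.60 ± 0.12, adjusted p = 1.28e-14, edgeR) and -3.46 ± 0.30 without it. Tmem26 had 3.32, 3.24 and 3.12 CPM against 67, 61.6 and 70.2 CPM (4.36 ± 0.11, adjusted p = 1.13e-14, edgeR), and was higher in unstimulated KO as well, 131 against 43.4 CPM (1.59 ± 0.08). Cd81, a tetraspanin, was higher in both (2.39 ± 0.11 and 1.25 ± 0.09), and Entpd1, the ectonucleotidase CD39, was lower in both (-2.94 ± 0.14 and -2.98 ± 0.35). Mmp14 was lower in both, by more without stimulation (-6.19 ± 0.24) than with it. Genes of this kind differed between the genotypes in cells that had not seen LPS or IFNγ. The part of other differences between the wildtype and KO cells, as between mouse strains or cell lines, was not tested.

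**Figure D5:**
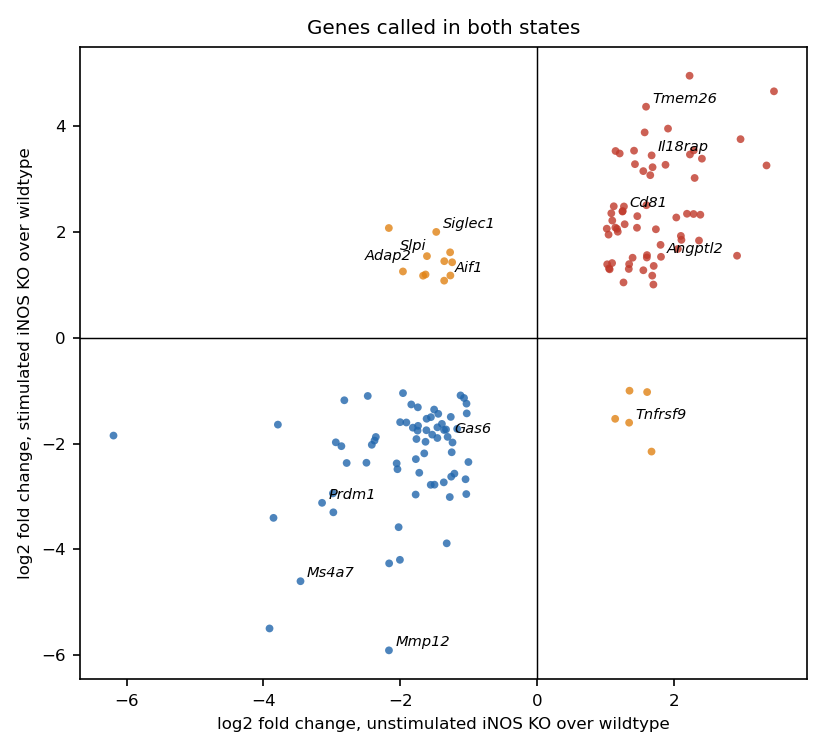
Log2 fold change of iNOS KO over wildtype without stimulation (x axis) and after it (y axis) for 144 of the 205 genes called in both states, those with over 3 counts in some library of every group. Of the genes drawn, 61 were higher in both states (red), 67 lower in both (blue) and 16 changed direction (orange).

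Nos2 lies on chromosome 11. Of 185 tested genes within 5 Mb of Nos2 in the table, 16 were called higher and 14 lower after stimulation (8.6% and 7.6%, against 10.7% and 8.87% of all genes), and 2 higher and 4 lower without it. Slfn1, Slfn9 and Ccl12, which were higher after stimulation, and Ccl5 and Adap2, which changed direction between the states, lie in this stretch, and the part of their position was not tested. Among those lower without stimulation was Wfdc17, with 4.59 CPM in wildtype and 0.946 CPM in KO unstimulated cells (log2 fold change -2.28 ± 0.15) and no call after stimulation (0.02 ± 0.08).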

How the data were processed

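Gene counts of 12 libraries made from poly A RNA were read as deposited. Per the labels and methods, the authors filtered reads, aligned them with STAR to mm10 and counted reads per gene, and the deposited values are raw counts. The gene positions in the count table are not those of the GRCm38.p6 windows. Slfn9 ends at 82882656 in the count table, while its window lies at 82991781 to 82992080. The counting program and its strand setting are not given in the sources used here, so overlapping and antisense genes cannot be told apart. Library totals ran from 15072109 to 18878107 counts. Groups came from the labels.

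The fit took genes whose counts summed to 10 or more over the 12 libraries and was made with edgeR 4.0.16 in R 4.3.3 (TMM scaling, 1 coefficient a group, quasi-likelihood test, Benjamini-Hochberg adjustment), the common dispersion was 0.00845, and the contrasts were KO against wildtype after stimulation, without it, and their difference. On simulated counts the stimulated contrast recovered 98 of 100 genes planted at 2.5-fold and 100 of 100 at 4-fold, among 18302 genes, with 2 others called. In the simulation all other genes had the same share of counts in every library, and no library was shifted as KO stimulated replicate B was. The rate of false calls in the real data was therefore not tested by it. A fold against 3 counts or fewer is a bound against a floor of 3 counts in each library; intervals from counts cover counting error only. Promoters were matched by symbol, for 11451 of the genes tested. Replicate letters did not pair the libraries: the correlation of same-letter deviations ran from -0.10 to 0.10, so no block was used.

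The genes described and the lists were chosen with earlier results of these data known. Named by rule were up to 3 called genes in each direction of a list whose log2 CPM averaged over 3 and whose genotypes did not overlap, the 15 largest changes and the 10 most abundant called genes in each direction, 5 genes in each direction at the floor in 1 genotype, and 5 called in both states in each direction or in opposite ones. List members that did not pass were named for their values. Other called genes, among them Adm, Ankrd37, Bnip3l, Ddit4, Egln1, Ero1a, Stc2, P4ha1, Car12, Slc2a1, Pdk1, Pgk1, Pfkfb1, Fdps, Hmgcs1, Lss, Fbl, Ncl, Polr1b, Cad, Ctps, Asns, Psat1, Manf, Ulk1, H2-Ab1, Epas1, Smad3, Ikzf1, Vsir, C3ar1, Fcgr3, Axl, Pros1, Csf2, Csf2rb, Il7, Il18, Osm, Il1rl1, Cx3cr1, Cxcl10, S1pr2, Timp2, the C1q genes and Wfdc17, were chosen after their values were seen. Alternatives were DESeq2 1.42.0, other scaling and filters, the replicate block, fewer libraries and other fold limits. Matplotlib 3.10.9 drew the figures.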

Additional observations from a re-analysis of the deposited data

Results flagged for a closer look

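The KO difference was not the same with and without stimulation for 6617 genes by the interaction test of edgeR (adjusted p below 0.05), and 19 genes were called in both states in opposite directions. Among these, Siglec1 was lower in KO without stimulation and higher after it, so that its log2 fold change differed by 3.47 ± 0.17 (adjusted p = 7.47e-11, edgeR; higher in 3 of 3 stimulated KO libraries). Slpi, a secreted inhibitor of neutrophil elastase, had means of 4.33 CPM in wildtype and 1.79 CPM in KO without stimulation and of 17.3 and 52.8 CPM after it, a difference of 2.88 ± 0.18 (adjusted p = 1.38e-09, edgeR). Aif1, a calcium-binding protein of macrophages, went from 3.19 and 1.24 CPM to 19.9 and 54.0 CPM (2.80 ± 0.17), and Adap2 from 1.34 and 0.442 CPM to 10.1 and 29.3 CPM (3.15 ± 0.47). The costimulatory receptor Tnfrsf9 turned the other way, with 1.34 CPM in wildtype and 3.39 CPM in KO without stimulation and 20.7 and 6.80 CPM after it (-2.95 ± 0.27, adjusted p = 1.80e-07, edgeR). Each of the 5 genes had lower levels without stimulation than after it in both genotypes. Single values were not tested for outliers within groups of 3, and KO stimulated replicate B stood apart over all genes as described in the report.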

How the results depend on the processing

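The count of genes called after stimulation lay between 2750 (protein-coding genes alone) and 3696 (library totals as the scaling) over the other tests, scalings, filters and libraries, against 3655, and was 9040 without a fold limit and 1441 with a log2 limit of 2. Without stimulation the counts were 1117 and 134 under those limits and otherwise 281 with DESeq2 to 384 with 6 libraries, against 310. Leaving out 1 library gave 3373 to 3612 genes after stimulation, 256 to 276 without it and 5965 to 7473 for the interaction. The replicate block gave 3517, 302 and 6542. DESeq2 called 3316 after stimulation, of which 3278 were among the 3655. Library totals raised the median of all genes from -0.04 to 0.04 and the share of higher calls from 54.7% to 62.3%, and moved the medians of 62 of 68 lists by more than the spread between replicates. Of 260 named called genes, 231 were called under each of the 10 alternatives run on them; those that were not include Ern1 and Ccl5. No direction reversed in these runs. The depth leaves genes at a few counts, such as Optn and P4ha2 in KO, with bounds in place of folds.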

Other observations

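Several of the widest changes lay outside the pathways above. Nmral1, a sensor of NADPH, had 1.59, 2.30 and 1.66 CPM in wildtype and 32.8, 40.2 and 33 CPM in KO stimulated libraries, the latter near the unstimulated means of 32.5 and 33.3 CPM (log2 fold change 4.25 ± 0.15, adjusted p = 5.56e-13, edgeR). Dusp2, a phosphatase of MAP kinases, had 44, 41.7 and 43.5 CPM against 346, 454 and 350 CPM (3.16 ± 0.11, adjusted p = 3.37e-13, edgeR). Keratin Krt16, known from stressed epithelium, had 44.6, 44.2 and 60.5 CPM in wildtype and 1.54, 2.45 and 1.85 CPM in KO, with 0 counts in unstimulated cells (-4.68 ± 0.19, adjusted p = 3.79e-10, edgeR). Dio2, which activates thyroid hormone, went from 42.2 to 2.15 CPM (-4.26 ± 0.21) and was lower without stimulation too (-2.16 ± 0.34).

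Of 21 genes of prostanoids and leukotrienes 2 were called higher and 2 lower (9.5% each, near the 10.7% and 8.87% of all genes tested). Without KO stimulated replicate B or wildtype stimulated replicate A 1 was called higher. Pla2g7, which hydrolyses platelet-activating factor, had 12.7, 13.4 and 13.3 CPM against 3.21, 3.61 and 4.24 CPM (-1.83 ± 0.15), and Ptgs2, the inducible cyclooxygenase, stayed under the fold limit with 4022, 3612 and 3804 CPM against 3017, 2007 and 3496 CPM (-0.42 ± 0.13).

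Of 2603 long noncoding RNAs 186 were called higher and 300 lower (7.1% and 11.5%). Of 1547 processed pseudogenes 267 were called higher and 58 lower (17.3% and 3.7%).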
